A study of Caenorhabditis elegans with 245 samples.

Results

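The reads described here came from the tRNA genes of Caenorhabditis elegans that carry cysteine (Cys), tryptophan (Trp), phenylalanine (Phe), tyrosine (Tyr) or asparagine (Asn). They were taken from the tables of small RNA counts as every entry of class tRNA whose name ends in Cys, Trp, Phe, Tyr or Asn and an anticodon. This gave 81 of the 820 tRNA genes and 6 of the 60 anticodon labels: 13 genes of Cys-GCA, 12 of Trp-CCA, 15 of Phe-GAA, 19 of Tyr-GTA, 1 of Tyr-ATA and 21 of Asn-GTT. By their names, 33 of the genes lie on chromosome X, 21 on V, 11 on III, 7 on I, 5 on IV and 4 on II. The choice used the names only and no measured value.

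Each tRNA is folded from a short transcript, is charged with its amino acid by the matching aminoacyl-tRNA synthetase, and reads its codon through the anticodon loop. Cut pieces of tRNAs, called tRNA-derived small RNAs (tDRs), are cloned in small RNA libraries and are abundant in the sperm of several animals. RNase T2 enzymes, of which rnst-2 is the worm member, are secreted or lysosomal nucleases that cut RNA with little preference for sequence. The Tyr tRNAs of C. elegans are made with a short intron that is removed by splicing, and the Tyr and Asn tRNAs are among the few whose anticodon can receive the modified base queuosine.

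The study asked which tDRs accumulate in sperm and whether rnst-2 limits them. Of its 245 samples, 45 were small RNA libraries, and the groups below are all of these. In males the genotypes were rnst-2(pen1);fog-2 (del/del, n = 6) against rnst-2(pen1)/tmc16;fog-2 (del/+, n = 5), and rnst-2(pen4);fog-2 (cat/cat, n = 6) against rnst-2(pen4)/tmc16;fog-2 (cat/+, n = 5). In females they were del/del (n = 4) against del/+ (n = 4). Purified sperm came from cat/cat males (n = 4) and from fog-2 males that carry wild-type rnst-2 (WT, n = 4), and were set against whole cat/cat males whose counts stand in the same table, called males of the sperm experiment (n = 3), and whole WT males (n = 4). All groups carried fog-2, a mutation that leaves XX animals without sperm of their own, and the females were virgin. The pen1 allele is a small indel that shifts the reading frame near the start of rnst-2, and pen4 changes a catalytic histidine to alanine in a gfp-tagged rnst-2. Both heterozygotes carried the balancer tmc16, which the homozygotes did not, so rnst-2 genotype and balancer cannot be told apart. Whole-animal libraries were made from 200 ng of RNA of about 50 adults grown at 20 °C, 24 h after the last larval stage.

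To show what was being counted, genomic copies of each tRNA follow, 5′ to 3′ with the intron of Tyr taken out, from the RefSeq annotation of assembly WBcel235. Capitals mark the anticodon.
Cys T28C12.t1 chrV:6335398-6335469 (+ strand): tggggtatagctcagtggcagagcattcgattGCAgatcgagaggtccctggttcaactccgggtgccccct
Trp F49C5.t1 chrII:12539597-12539668 (+ strand): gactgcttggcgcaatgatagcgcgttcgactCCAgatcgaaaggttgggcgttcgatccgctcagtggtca
Phe C06G4.t1 chrIII:7978471-7978543 (- strand): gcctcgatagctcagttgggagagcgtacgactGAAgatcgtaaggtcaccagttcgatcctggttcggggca
Phe Y53C12A.t1 chrII:9713224-9713296 (- strand): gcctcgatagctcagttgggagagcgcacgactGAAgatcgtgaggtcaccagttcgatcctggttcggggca
Tyr C16D9.t4 chrV:8247481-8247564 (+ strand): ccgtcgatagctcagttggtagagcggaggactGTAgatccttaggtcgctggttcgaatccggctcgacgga
Asn ZK154.t1 chrX:7773190-7773262 (+ strand): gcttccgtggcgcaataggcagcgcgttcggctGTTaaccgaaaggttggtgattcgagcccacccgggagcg
RefSeq lists 13 Cys genes with 2 distinct sequences, 12 Trp genes with 3, 14 Phe genes with 4, 19 Tyr genes with 7 and 20 Asn genes with 3. The commonest sequence was shared by 12 Cys, 10 Trp, 10 Phe, 12 Tyr and 18 Asn genes, and all 19 Tyr genes held an intron of 11 nt. For Phe, C06G4.t1 is the commonest sequence and Y53C12A.t1 differs from it by T27C and A43G, counted from the 5′ end with the base of C06G4.t1 given before the position. The printed Cys copy is the only Cys gene that differs from the other 12, at 2 positions. The printed Trp and Asn copies each differ from the commonest one at 1 position and the printed Tyr copy at 2. A read from a shared stretch cannot be placed on 1 gene of such a family, so counts were summed per anticodon, and single genes are given separately.

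The libraries held between 4976236 counts, in a del/+ male library, and 51191372 counts, in a WT sperm library. rRNA took 58.7 to 68.3% of the counts in cat/cat sperm, against 15.9 to 24.5% in WT sperm. It took 18.3 to 25.5% in del/del males against 3.55 to 5.47% in del/+ males, and 21.2 to 26.9% in cat/cat males against 3.90 to 5.72% in cat/+ males. Since a class that fills more of a library lowers the rate of every other RNA, values are given in reads-per-million units (rpm), a share of the counts of the library, for WT sperm and the male genotypes, in rpm without rRNA for cat/cat sperm, and in rpm without rRNA and piRNA for females. mRNA fragments of rnst-2 itself had 0 to 80 counts per library, and siRNAs antisense to rnst-2 averaged 3 counts in cat/cat sperm against 147 in WT sperm, and 1389 counts in del/del females against 1220 in del/+ females. These are raw counts, and the libraries without rRNA averaged 4454939 counts in cat/cat sperm against 23336422 in WT sperm. Since counts do not show the edited bases, neither the fragments nor the siRNAs were used to check the genotype labels. Markers of other tissues and of sperm are given throughout in rpm without rRNA and piRNA. Major sperm protein (msp) mRNA fragments of 28 genes summed to 151 to 282 rpm in WT sperm against 31.1 to 42.1 rpm in WT males. The muscle miRNA mir-1 was at 2.57 to 3.28 rpm in WT sperm against 10.1 to 39.3 rpm in WT males. But mRNA fragments of 6 yolk protein (vit) genes, which the intestine of females or hermaphrodites makes, went the other way. They were at 60.7 to 232 rpm in WT sperm against 2.20 to 9.20 rpm in WT males, and at 314 to 796 rpm in del/+ females. By the study's methods, sperm came from worms that were mostly males, with a lower male purity accepted for rnst-2 mutants. The third cat/cat sperm library stood apart, with mir-1 at 404 rpm, against 9.12 to 10.3 rpm in the other 3. Other somatic miRNAs differed less. In that library mir-228 was at 8446 rpm against 5728 to 7932 rpm, and mir-85 at 180 rpm against 53.4 to 105 rpm. Its mir-81 level, 3508 rpm, lay within the 2251 to 4705 rpm of the others.

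Among the 6 anticodons, Asn-GTT gave the most reads of the set in both sperm groups and in most male groups. In del/+ males Trp-CCA had the higher mean rpm and in del/del males Cys-GCA was just above it, each through 1 library that is given below. By mean rpm, Asn-GTT was 4th of the 60 tRNA labels in WT sperm and 7th in WT males, and in the same order of groups Tyr-GTA was 19th and 18th, Cys-GCA 31st and 30th, and Trp-CCA 38th and 26th. Tyr-ATA, the label of 1 gene, was 58th in WT sperm and 54th in WT males. The 6 together made up 6.28 ± 1.01% of the tRNA counts in WT sperm against 5.04 ± 0.725% in WT males, and 0.753 ± 0.193% in del/del females against 0.865 ± 0.364% in del/+ females (SD, n = 4 each).

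**Figure D1:**
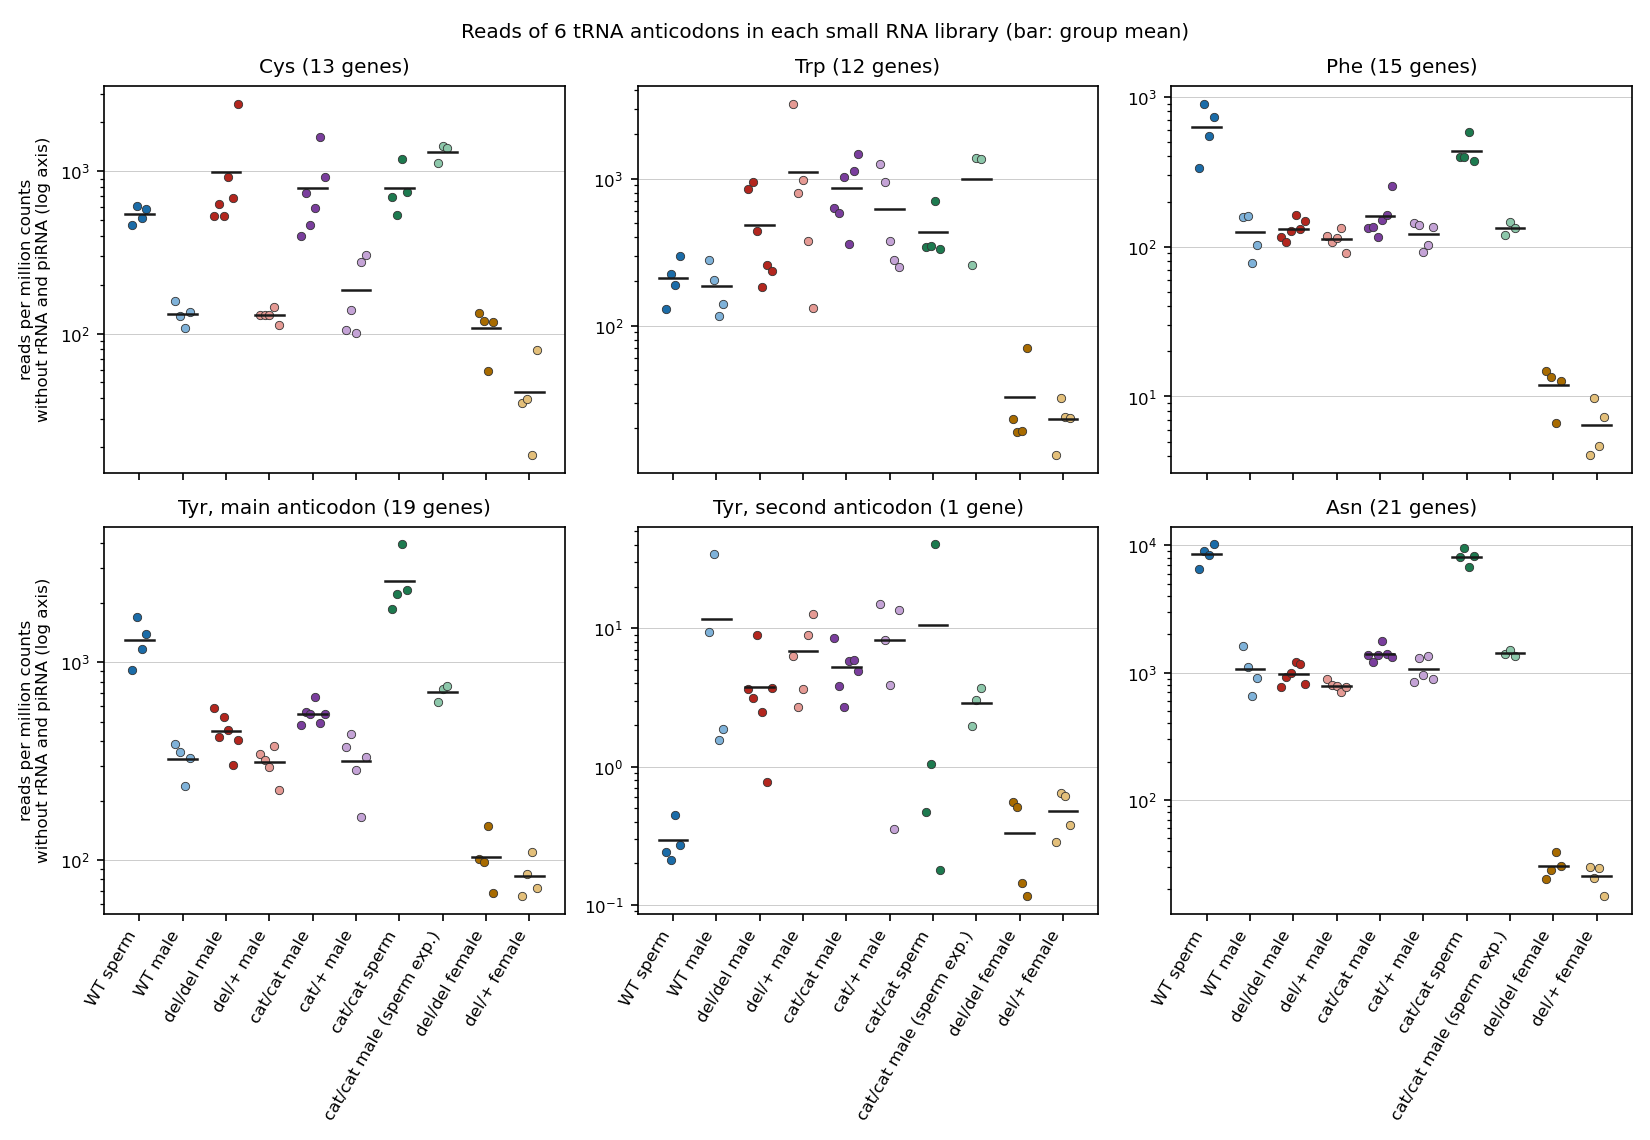
Reads of each anticodon in rpm without rRNA and piRNA, on a log axis, with 1 point per library and a bar at the group mean for the 10 groups. Asn-GTT reached 6572 to 10178 in WT sperm against 656 to 1620 in WT males, and the female libraries lay lowest, at 17.6 to 38.9.

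Reads of Asn, Phe, Cys and Tyr-GTA tRNAs were higher in WT sperm than in whole WT males, those of Trp did not differ detectably, and those of Tyr-ATA were lower. Asn-GTT, whose tRNA reads the asparagine codons, had 4920, 6884, 6185 and 8397 rpm in WT sperm, against 1503, 1022, 631 and 884 rpm in WT males. Every sperm library lay above every male library, and the ratio of the means was 6.53. Phe-GAA had 250, 681, 404 and 600 rpm in WT sperm, against 147, 148, 74.6 and 98.4 rpm in WT males. Cys-GCA had 351, 461, 382 and 483 rpm in WT sperm, against 147, 120, 103 and 131 rpm in WT males. Neither of these overlapped between the groups, and the ratios of the means were 4.14 for Phe-GAA and 3.35 for Cys-GCA. Tyr-GTA had 685, 1287, 860 and 1143 rpm in WT sperm, against 360, 326, 229 and 317 rpm in WT males, a ratio of 3.23 with no overlap. Trp-CCA was the exception among the larger families. It had 97.3, 170, 139 and 244 rpm in WT sperm, against 259, 189, 112 and 136 rpm in WT males, and the groups overlapped. The single gene of Tyr-ATA had 4, 4, 17 and 5 counts in WT sperm, against 121, 552, 24 and 35 counts in the less deeply sequenced WT males. The vit fragments, which were higher in every WT sperm library than in any WT male library, moved with these differences, and their part in them was not tested. In bulk samples like these, a larger share of a cell type and more RNA per cell cannot be told apart.

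In edgeR's quasi-likelihood test, adjusted by Benjamini-Hochberg over the 24428 small RNAs tested, the log2 fold change of WT sperm over WT males was 2.71 ± 0.24 (SE) for Asn-GTT (adjusted p = 1.7e-06), 2.05 ± 0.30 for Phe-GAA (5.4e-05), 1.74 ± 0.16 for Cys-GCA (1.8e-06) and 1.69 ± 0.20 for Tyr-GTA (1.1e-05). Tyr-ATA was lower, at -5.49 ± 0.93 (0.000185), and Trp-CCA was at -0.10 ± 0.29 (0.785). Thus 4 of the 6 were called higher and 1 lower. Of all small RNAs, 64.7% were called at an adjusted p under 0.05, 31.1% as higher and 33.6% as lower. Among the other tRNA labels 34 of 52 were called higher and 8 lower, with a median of 1.58, beside a median of 1.72 over the 6 and of -0.13 over all RNAs tested. tRNA took 13.8% of the counts in WT sperm against 3.41% in WT males, and when the tRNA counts served as library size, only Asn-GTT stayed higher, at 0.73 (adjusted p = 0.0178). Under that scaling Trp-CCA was lower, at -2.09, while Cys-GCA, Phe-GAA and Tyr-GTA lay between -0.35 and 0.02 and were not called.

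**Figure D2:**
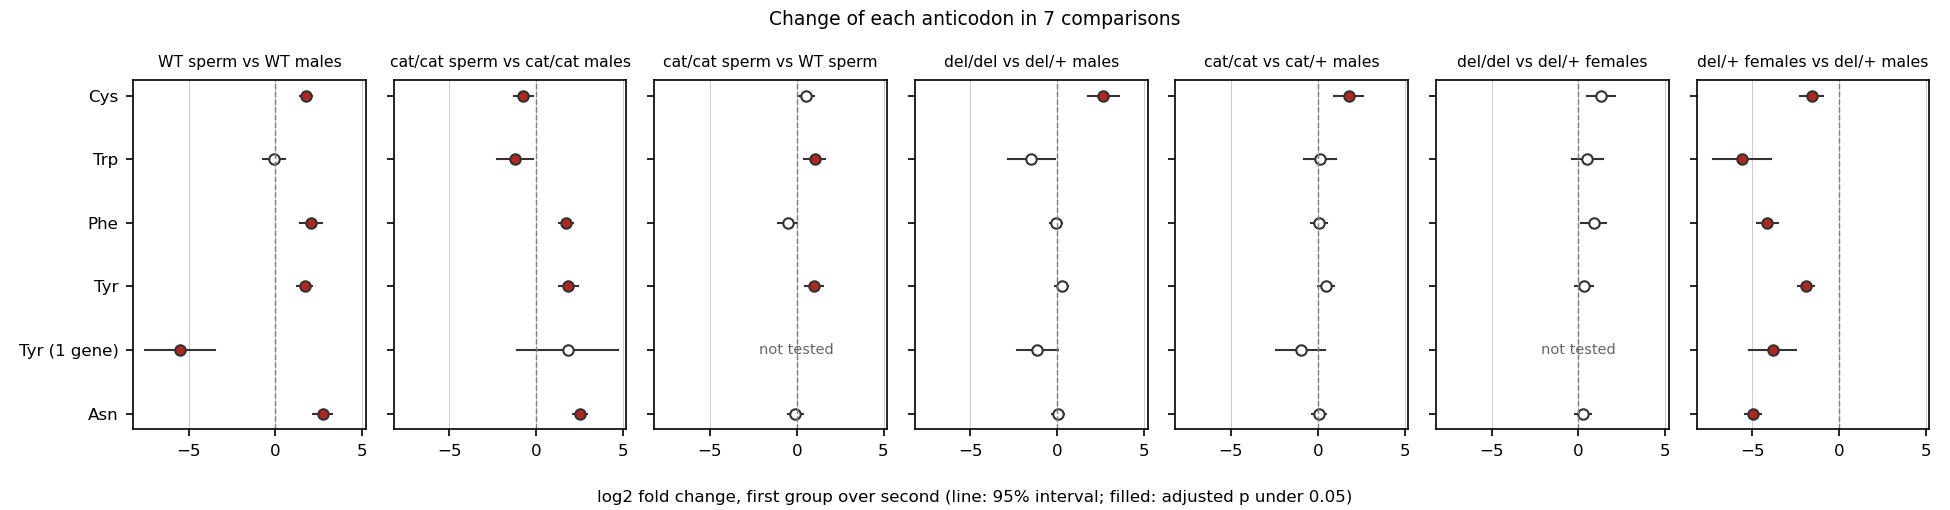
Log2 fold change of each anticodon in 7 comparisons, with the group named before "vs" on top of the ratio, lines for 95% intervals and filled points for an adjusted p under 0.05. In WT sperm against WT males Asn-GTT lay at 2.71 and Tyr-ATA at -5.49, and in both homozygous male genotypes Cys-GCA was the only filled point, at 2.66 and 1.77.

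In del/del males, reads of Cys tRNA were higher than in del/+ males and those of the other 5 anticodons were not called by edgeR. DESeq2, which scaled the libraries by its own size factors and not by all counts, also called Tyr-GTA (0.75, adjusted p = 0.0260) and Asn-GTT (0.50, 0.0292) as higher. Cys-GCA had 389, 492, 403, 735, 549 and 2084 rpm in the 6 del/del libraries, against 123, 124, 122, 137 and 108 rpm in del/+ males. All 6 homozygous libraries lay above all 5 heterozygous ones. The ratio of the means was 6.32, and it rests in part on the 6th del/del library. The log2 fold change was 2.66 ± 0.41 (SE; 95% interval 1.79 to 3.53, edgeR adjusted p = 0.00306), and 2.06 ± 0.19 (7.4e-05) without that library. Cys-GCA ranked 3rd of 57 tRNA labels by fold change. By mean level it was 11th of the 60 labels in del/del males and 27th in del/+ males.

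Phe, Tyr-GTA and Asn tRNAs were not called by edgeR in the same libraries, and their ranges overlapped between the genotypes. Phe-GAA had 84.7 to 130 rpm in del/del males against 86.6 to 125 rpm in del/+ males, with a log2 fold change of -0.05 ± 0.16. Tyr-GTA had 244 to 430 rpm in del/del males against 215 to 352 rpm in del/+ males, with 0.24 ± 0.17. Within the 5 pairs of same-numbered libraries the del/del one was higher in each, by ratios of 1.04 to 1.44. Asn-GTT had 569 to 979 rpm in del/del males against 666 to 846 rpm in del/+ males, with 0.04 ± 0.16. Trp-CCA varied more than any of these. It had 621, 747, 332, 146, 207 and 188 rpm in del/del males, against 3078, 764, 920, 353 and 126 rpm in del/+ males, and its log2 fold change was -1.49 ± 0.63 (edgeR adjusted p = 0.142), or -0.53 ± 0.53 (0.627) without the highest del/+ library. Tyr-ATA had 4 to 55 counts in del/del males against 27 to 65 counts in del/+ males, with -1.14 ± 0.55 (0.198).

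Of the 15133 small RNAs tested in this comparison 13.4% were called, 1.3% as higher and 12.1% as lower, and the call for Cys-GCA, 1 of 6, stands beside 14 of 51 other tRNA labels called higher and none lower. The median log2 fold change was -0.39 over all RNAs and 0.34 over the other tRNA labels. tRNA took 8.58% of the counts in del/del males against 3.25% in del/+ males, so scaling by tRNA counts lowers every RNA in del/del males. With tRNA counts as library size Cys-GCA remained higher, at 1.17 ± 0.34 (adjusted p = 0.00659), and the other 5 anticodons were called lower, at -1.16 to -2.75. The share of all RNAs called under that scaling is not given here. Cys-GCA made up 0.862 ± 0.586% of the tRNA counts in del/del males (SD, n = 6) against 0.384 ± 0.0607% in del/+ males (n = 5), while Asn-GTT made up 0.927 ± 0.292% against 2.34 ± 0.328%. msp fragments, which mark sperm and developing sperm, were at 96.6 to 199 rpm without rRNA and piRNA in del/del males against 18.2 to 54.3 rpm in del/+ males, and the part of this in the result for Cys was not tested.

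In cat/cat males edgeR again called Cys tRNA alone of the 6 anticodons, as higher than in cat/+ males. DESeq2, again with its own size factors, also called Tyr-GTA (1.03, adjusted p = 0.0209) and Asn-GTT (0.67, 0.0360) as higher. Cys-GCA had 303, 567, 341, 428, 1256 and 681 rpm in cat/cat males, against 99, 132, 96.3, 259 and 289 rpm in cat/+ males. The groups did not overlap, but the lowest cat/cat library was close to the highest cat/+ library. The ratio of the means was 3.4 and the log2 fold change 1.77 ± 0.40 (SE; 95% interval 0.91 to 2.62, edgeR adjusted p = 0.0152), which was again rank 3, here of 58 labels. Per tRNA count it was 0.64 ± 0.32 (0.101) and the call was lost.

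In rpm without rRNA, Tyr-GTA did not overlap between cat/cat males, at 479 to 663 rpm, and cat/+ males, at 165 to 430 rpm. In rpm of all counts, which are given next, Trp, Phe, Tyr and Asn tRNAs overlapped between cat/cat and cat/+ males. Trp-CCA had 483, 452, 748, 260, 868 and 1096 rpm in cat/cat males, against 1194, 904, 361, 262 and 237 rpm in cat/+ males, with a log2 fold change of 0.14 ± 0.44. Phe-GAA was at 0.04 ± 0.22, Tyr-GTA at 0.45 ± 0.22 (edgeR adjusted p = 0.207) and Asn-GTT at 0.06 ± 0.18. Tyr-GTA was higher in the cat/cat library for 5 of 5 shared numbers, by ratios of 1.04 to 3.12, although the numbers were not taken to pair these libraries. The levels of Asn-GTT were 931 to 1280 rpm in cat/cat males against 797 to 1261 rpm in cat/+ males. Tyr-ATA was at -0.98 ± 0.66, and without the 4th cat/+ library, which had 2 counts of it and 12310 small RNAs detected, it was lower, at -1.28 ± 0.39 (0.0270). Of the 16248 small RNAs tested 12.1% were called, 1.06% as higher and 11% as lower, against 1 of the 6 anticodons and, among the other tRNA labels, 8 of 52 higher and 3 lower. The median was -0.38 over all RNAs and 0.18 over the other tRNA labels. msp fragments were at 94.2 to 292 rpm without rRNA and piRNA in cat/cat males against 9.26 to 76.7 rpm in cat/+ males, and their part in the result was not tested.

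Whether the alleles acted differently was tested as the difference of the 2 homozygous effects, catalytic minus deletion. For Cys-GCA it was -0.89 ± 0.56 (SE; 95% interval -2.05 to 0.26), and the interval holds both no difference and a much smaller effect of the catalytic allele. For Trp-CCA it was 1.63 ± 0.81 (unadjusted edgeR p = 0.0543). None of the 6 anticodons and 0% of the 19406 small RNAs were called by edgeR, and none of the 6 had an unadjusted p under 0.05. DESeq2 called 0 of the 6 and 1 small RNA in all.

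Kept as single genes, 12 of the 13 Cys genes were called higher in del/del males, with a median log2 fold change of 2.73, and 12 of 13 in cat/cat males, with a median of 1.84. Most genes of the larger families share a sequence in RefSeq, so here and below calls of single genes are not independent measurements. No gene of another anticodon was called in either comparison. With tRNA genes kept apart, 14.1% of all RNAs were called in del/del males and 12.4% in cat/cat males. The Cys gene that was not called was chrV_trna6_CysGCA in both, at 0.57 ± 0.30 (edgeR adjusted p = 0.243) and 0.11 ± 0.38 (0.937). It was also the lowest of the 13 over all libraries, while the other 12 lay within 25% of the median Cys gene. Its level was 12 ± 4.18 rpm in del/del males (SD, n = 6) against 8.11 ± 1.96 rpm in del/+ males (n = 5), and 11.8 ± 2.27 rpm in cat/cat males (n = 6) against 10.9 ± 6.04 rpm in cat/+ males (n = 5).

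The share of the Cys reads that chrV_trna6_CysGCA took was next compared between genotypes. It held 0.760 to 2.97% of them in del/del males against 4.98 to 8.36% in del/+ males, and 1.09 to 3.77% in cat/cat males against 4.16 to 7.97% in cat/+ males. Neither pair of groups overlapped, and each gave p = 0.00433 in a 2-sided exact permutation test (0.0519 after adjustment over the 24 such tests made, which misses 0.05). In females the share was 0.328 to 0.512% in del/del against 1.28 to 2.08% in del/+ (exact permutation p = 0.0286, adjusted 0.0857). In sperm it was 3.51 to 6.84% in cat/cat against 6.97 to 7.39% in WT (exact permutation p = 0.0286, adjusted 0.0857). In these 4-against-4 comparisons 0.0286 is the smallest p the test can give. The gene was picked as the lowest Cys gene over all 45 libraries, the homozygous ones among them. A rise of the other 12 genes also lowers its share, so these tests are not separate support for a change of this gene. RefSeq holds 1 Cys gene, T28C12.t1 on chromosome V, that differs from the other 12, but the tables hold no coordinates and it was not established whether it is the gene called chrV_trna6_CysGCA.

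**Figure D3:**
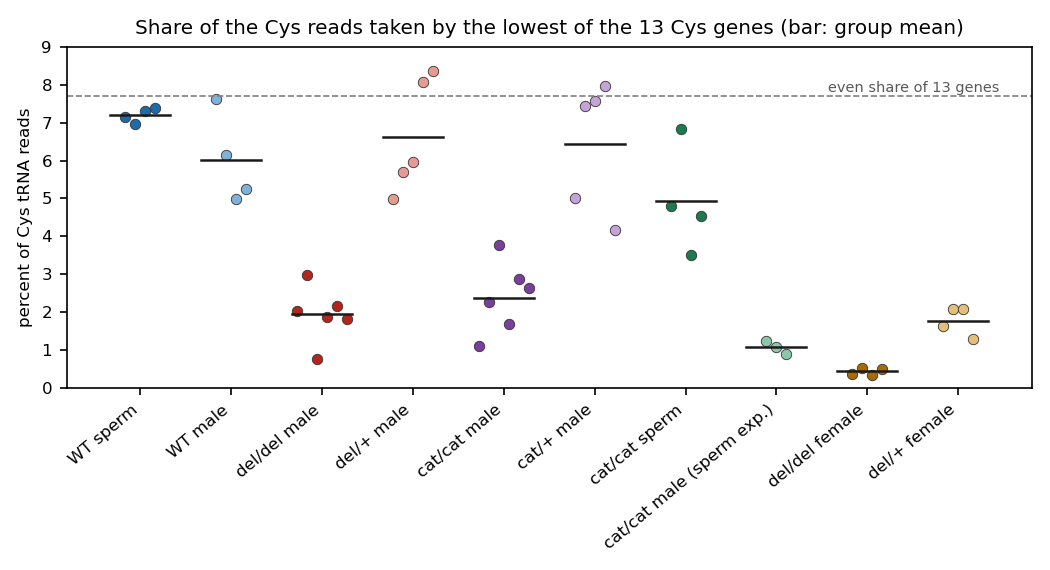
Percent of all Cys-GCA reads assigned to chrV_trna6_CysGCA, with 1 point per library, a bar at the group mean and a dashed line at the even share of 13 genes. The 6 del/del males lie at 0.760 to 2.97% against 4.98 to 8.36% in del/+ males, and the 4 WT sperm libraries lie at 6.97 to 7.39%.

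The genes of the other anticodons were mostly counted at like levels: 18 of 21 Asn genes, 11 of 12 Trp genes, 11 of 15 Phe genes and 14 of 19 Tyr-GTA genes lay within 25% of the median gene of their anticodon. In WT sperm against WT males 65 of the 80 genes tested were called higher and 3 lower, where 65.2% of all RNAs were called with tRNA genes kept apart. All 13 Cys and 18 Tyr-GTA genes tested, 14 of 15 Phe genes and 20 of 21 Asn genes were higher. The Asn gene that went the other way, chrII_trna36_AsnGTT, was lower, at -3.31 ± 0.64 (edgeR adjusted p = 0.000548), and held 0.00707% of the Asn reads in WT sperm against 0.444% in WT males. For Trp, chrX_trna183_TrpCCA was lower, at -1.81 ± 0.43 (0.00229), with 1.49% of the Trp reads in WT sperm against 4.63% in WT males. The Phe gene with the fewest reads, chrI_trna28_PheGAA, held 0.720% of the Phe reads in WT sperm against 4.21% in WT males. These were the lowest genes of their anticodons by mean level. Among the highest, chrI_trna67_AsnGTT held 15.4% of the Asn reads in WT sperm against 13.2% in WT males, and chrII_trna52_PheGAA held 13.3% of the Phe reads in WT sperm against 12.5% in WT males. The Phe genes chrII_trna52_PheGAA and chrV_trna54_PheGAA were at 2.27 and 2.18 times the median Phe gene, and the Tyr genes chrII_trna53_TyrGTA and chrV_trna11_TyrGTA at 1.57 and 1.55 times the median Tyr gene. chrII_trna52_PheGAA is the only Phe gene on chromosome II in the tables, as Y53C12A.t1 is in RefSeq, and so corresponds to the Y53C12A.t1 sequence above. chrV_trna154_TyrGTA had no count in any of the 45 libraries.

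In cat/cat sperm, reads of Trp and Tyr-GTA tRNAs were higher than in WT sperm, those of Asn, Phe and Cys were not called, and Tyr-ATA had too few reads to be tested. Values are in rpm without rRNA. Trp-CCA had 337, 346, 678 and 327 rpm in cat/cat sperm, against 128, 222, 184 and 290 rpm in WT sperm, without overlap. Tyr-GTA had 1825, 2200, 3817 and 2273 rpm in cat/cat sperm, against 899, 1680, 1139 and 1359 rpm in WT sperm, also without overlap. The log2 fold changes were 1.03 ± 0.28 (edgeR adjusted p = 0.00818) and 0.99 ± 0.25 (0.00518). In both anticodons the 3rd cat/cat library was the highest. Without it they were 0.71 ± 0.23 (0.0161) for Trp-CCA and 0.73 (0.00887) for Tyr-GTA.

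Cys-GCA had 680, 526.3, 1152 and 729 rpm in cat/cat sperm, against 461, 602, 506 and 574 rpm in WT sperm. The groups overlapped by 1 library, and the log2 fold change was 0.53 ± 0.22 (edgeR adjusted p = 0.0574), or 0.67 (0.0240) without the 2nd cat/cat library and 0.27 (0.228) without the 3rd. Phe-GAA had 391, 393, 561 and 366 rpm in cat/cat sperm, against 328, 889, 536 and 714 rpm in WT sperm, with -0.53 ± 0.26 (0.104), or -0.69 (0.0369) without the 3rd cat/cat library and -0.74 (0.0157) without the 1st WT library. Asn-GTT had 7938, 9379, 6490 and 8037 rpm in cat/cat sperm, against 6454, 8987, 8191 and 9980 rpm in WT sperm, with -0.08 ± 0.19, or 0.01 without the 3rd cat/cat library. Of 22832 small RNAs 55.6% were called, 31.8% as higher and 23.8% as lower, against 2 of 5 anticodons higher and, among the other tRNA labels, 24 of 52 higher and 6 lower, with a median of 0.71. Kept apart, 38 of 78 genes were higher, among them all 12 Trp genes, 17 Tyr-GTA and 8 Cys genes, and 2 Phe genes were lower, where 55.4% of all RNAs were called.

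The direction of these sperm results depends on whether rRNA counts in the library size. With all counts as library size, Trp-CCA was at -0.13 and Tyr-GTA at -0.15, neither of them called, and Cys-GCA was lower, at -0.61 (edgeR adjusted p = 0.0391), as were Phe-GAA at -1.67 and Asn-GTT at -1.19. Per tRNA count Tyr-GTA stayed higher, at 0.65 (0.0413), Phe-GAA was lower, at -0.84 (0.0128), and Trp-CCA was not called, at 0.68 (0.0546). msp fragments were at 1091 to 1330 rpm without rRNA and piRNA in cat/cat sperm against 151 to 282 rpm in WT sperm, and vit fragments at 605 to 796 rpm in cat/cat sperm against 60.7 to 232 rpm in WT sperm. The part of these differences in the results was not tested. By the table's own heading the WT sperm libraries are those of the WT sperm and male experiment, set beside cat/cat sperm, so genotype and experiment cannot be told apart.

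**Figure D4:**
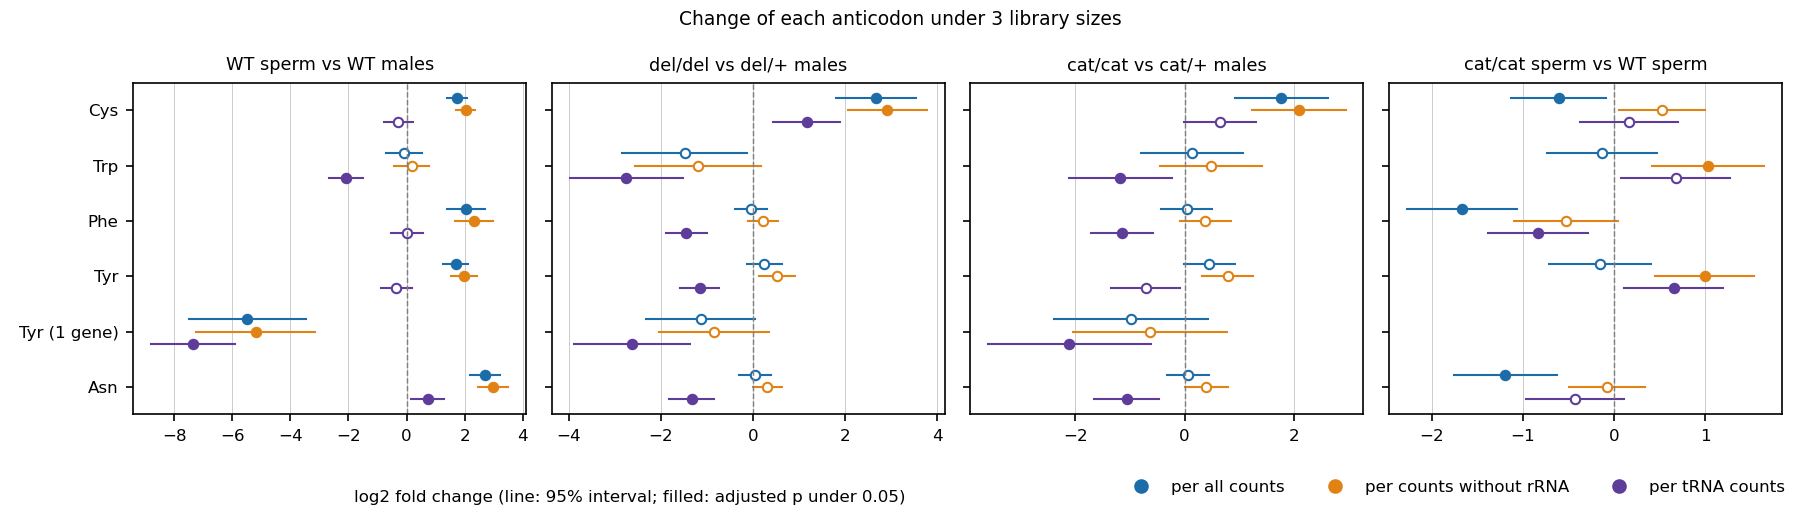
Log2 fold change of each anticodon in 4 comparisons when the library size was all counts, counts without rRNA or tRNA counts, with lines for 95% intervals and filled points for an adjusted p under 0.05. In del/del males Cys-GCA stayed filled under tRNA counts, at 1.17, in cat/cat males it did not, at 0.64, and in cat/cat sperm Trp-CCA and Tyr-GTA lay at -0.13 and -0.15 under all counts.

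Set against whole cat/cat males of the sperm experiment, cat/cat sperm had more Asn, Tyr-GTA and Phe reads and fewer Cys and Trp reads. Asn-GTT had 7938, 9379, 6490 and 8037 rpm without rRNA in cat/cat sperm, against 1363, 1483 and 1331 rpm in the males, a ratio of means of 5.72. Tyr-GTA had 617, 720 and 745 rpm in the males, a ratio of 3.64, and Phe-GAA had 117, 143 and 131 rpm, a ratio of 3.28. None of the 3 overlapped between sperm and males. Cys-GCA, which was higher in WT sperm than in WT males, had 680, 526.3, 1152 and 729 rpm in cat/cat sperm, against 1091, 1404 and 1362 rpm in the males, and Trp-CCA had 337, 346, 678 and 327 rpm in cat/cat sperm, against 253, 1347 and 1344 rpm in the males. Both overlapped between the groups, and the difference of the sperm effect between the genotypes was not tested.

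The log2 fold changes of cat/cat sperm over males were 2.52 ± 0.18 for Asn-GTT (edgeR adjusted p = 3.1e-06), 1.87 ± 0.25 for Tyr-GTA (0.000106), 1.71 ± 0.19 for Phe-GAA (3.8e-05), -0.74 ± 0.24 for Cys-GCA (0.0172) and -1.22 ± 0.48 for Trp-CCA (0.0394). Without the 3rd sperm library they were 2.60, 1.60, 1.56, -0.995 (0.000195) and -1.54 (0.00475) in the same order. The calls for Cys-GCA and Trp-CCA were lost with TMM factors, at -0.48 (0.0936) and -0.94 (0.0935), and with DESeq2, at -0.43 (0.168) and -0.90 (0.223). They were also lost without the 3rd male library, at -0.67 (0.0639) and -0.92 (0.157), and without the 4th, at -0.69 (0.0565) and -0.92 (0.161), and that for Trp-CCA also without the 2nd sperm library, at -1.13 (0.0989). Tyr-ATA was at 1.81 ± 1.32 (0.236) through 151 counts in the 3rd sperm library, against 1 to 4 counts in the other 3 and 15 to 24 in the males, and without that library it was lower, at -2.41 ± 0.59 (0.00244). Of 18430 small RNAs 72.7% were called, 33.9% as higher and 38.7% as lower, against 3 anticodons higher and 2 lower of 6, and 36 of 52 other tRNA labels higher and 2 lower. The median was -0.23 over all RNAs. Kept apart, 52 of 80 genes were higher and 16 lower, where 72.4% of all RNAs were called. chrV_trna6_CysGCA was higher, at 1.38 ± 0.20 (0.000173), while the other 12 Cys genes were lower. vit fragments were at 605 to 796 rpm without rRNA and piRNA in cat/cat sperm against 7.19 to 16.5 rpm in the males, and msp fragments at 1091 to 1330 rpm in cat/cat sperm against 605 to 915 rpm in the males. Their part in these results was not tested.

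In females, no anticodon was called between del/del and del/+. Cys-GCA had 134, 119, 59 and 119 rpm without rRNA and piRNA in del/del females, against 37.5, 39.7, 17.9 and 78.7 rpm in del/+ females, and the groups overlapped by 1 library. Its log2 fold change was 1.31 ± 0.37, with an unadjusted p of 0.00365 and an adjusted p of 1.00 in edgeR. Phe-GAA had 14.7, 13.4, 6.63 and 12.7 rpm in del/del females, against 4.06, 9.82, 4.68 and 7.30 rpm in del/+ females, with 0.88 ± 0.33 (unadjusted p = 0.0214). Trp-CCA had 23.3, 19, 19.2 and 70.3 rpm in del/del females, against 13.2, 32.3, 23.8 and 23.7 rpm in del/+ females. Its log2 fold change of 0.50 became -0.18 without the 4th del/del library. Tyr-GTA had 67.9 to 148 rpm in del/del females against 65.8 to 110 rpm in del/+ females, and Asn-GTT had 24.0 to 38.9 rpm in del/del females against 17.6 to 29.6 rpm in del/+ females.

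Of the 14748 small RNAs tested in females 0.0203% were called. Cys-GCA and Phe-GAA were the 2 of 5 anticodons with an unadjusted p under 0.05, and DESeq2 called none of the 5 and 15 small RNAs in all. None of the 65 genes tested one by one was called, where 0.314% of all RNAs were. The difference of the deletion effect, female minus male, was -1.61 ± 0.56 for Cys-GCA (unadjusted p = 0.00862, adjusted p = 0.534 in edgeR), and -1.03 without the 6th del/del male library. None of the 6 anticodons was called in that test, 0.129% of the small RNAs were, and DESeq2 called none of the 6 and 150 small RNAs in all.

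Reads of all 6 anticodons were lower in del/+ females than in del/+ males, in rpm without rRNA and piRNA. Asn-GTT had 29.6, 24.6, 29.3 and 17.6 rpm in females, against 892, 799, 785, 710 and 779 rpm in males. Phe-GAA had 4.06, 9.82, 4.68 and 7.30 rpm in females, against 118, 107, 115, 134 and 90.7 rpm in males. Trp-CCA had 13.2, 32.3, 23.8 and 23.7 rpm in females, against 3246, 804, 978, 376 and 132 rpm in males. Cys-GCA had 37.5, 39.7, 17.9 and 78.7 rpm in females, against 129, 131, 130, 146 and 113.4 rpm in males, and Tyr-GTA had 65.8, 85.3, 110 and 72.3 rpm in females, against 343, 319, 295, 376 and 225 rpm in males. Every female library lay below every male library in each of these 5 anticodons.

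The log2 fold changes of females over males were -5.58 ± 0.79 for Trp-CCA, -4.97 ± 0.22 for Asn-GTT, -4.13 ± 0.29 for Phe-GAA, -3.82 ± 0.63 for Tyr-ATA, -1.90 ± 0.21 for Tyr-GTA and -1.58 ± 0.32 for Cys-GCA, whose edgeR adjusted p was 0.000499. For Trp-CCA it was -4.63 without the 1st del/+ male library. The median over the 6 was -3.98, beside 0.45 over all RNAs and -2.69 over the other tRNA labels, of which 44 of 50 were lower and 1 higher. Of the 15648 small RNAs 65.7% were called, 37.4% as higher and 28.2% as lower. All 80 genes tested one by one were lower, where 66.4% of all RNAs were called. Female and male counts stand in separate tables, so sex and experiment cannot be told apart.

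Across the 10 groups, in rpm without rRNA and piRNA, the order of levels differed between the tRNAs. Asn-GTT was highest in the sperm groups, at 8129 ± 1143 rpm in cat/cat sperm and 8560 ± 1518 rpm in WT sperm (SD, n = 4 each), which did not differ beyond their spread. It lay between 793 and 1421 rpm in the 6 male groups and at 25.3 and 30.2 rpm in the female groups. Tyr-GTA was at 2590 ± 929 rpm in cat/cat sperm and 1292 ± 335 rpm in WT sperm, and at 312 to 708 rpm in the male groups. Cys-GCA had another order. It was highest in cat/cat males of the sperm experiment, at 1312 ± 172 rpm (n = 3), followed by del/del males at 983 ± 809 rpm (n = 6), cat/cat males at 791 ± 450 rpm (n = 6) and cat/cat sperm at 790 ± 282 rpm (n = 4). WT sperm had 546 ± 64.4 rpm (n = 4), and the male groups with at least 1 functional rnst-2 copy had 130 to 186 rpm. Neighbours among the 4 highest groups of Cys-GCA did not differ beyond their spread. The groups came from several experiments, so across experiments this order cannot tell group and experiment apart. Somatic miRNAs went both ways between cat/cat males of the sperm experiment and the other cat/cat males. Median mir-70 was 110 rpm in the former against 3051 rpm in the latter, and mir-81 16970 against 36284 rpm. In the same order mir-1 was 30.1 against 17.4 rpm, mir-228 16266 against 8933 rpm and mir-85 47.1 against 26.4 rpm. Median msp fragments were at 785 rpm in cat/cat males of the sperm experiment against 183 rpm in the other cat/cat males. The part of such differences in the order was not tested.

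Small RNAs from genes that act on these tRNAs were taken from a list of 14 genes, of which 12 were found: aminoacyl-tRNA synthetases of the 5 amino acids, the queuosine-inserting enzymes tgt-1 and tgt-2, and the tRNA ligase rtcb-1. Their counts are given beside the share of all RNAs of the same class that were called in that direction. In WT sperm against WT males their mRNA fragments were higher for 10 of 12 (64.5% of all mRNA fragments tested), such as wars-1, the Trp synthetase (log2 fold change 4.08 ± 0.67, edgeR adjusted p = 0.000145), and nars-1, the Asn synthetase (3.13 ± 0.41). Endogenous siRNAs against them were lower for 12 of 12 (58.8% of all siRNAs tested), such as fars-1, a Phe synthetase subunit (-2.49 ± 0.25). In cat/cat sperm against WT sperm fragments were higher for 8 of 12 (61.1%) and siRNAs lower for 3 of 12 (39.1%). In cat/cat sperm against cat/cat males fragments were higher for 9 of 9 (75.2%), with wars-1 at 5.50, and siRNAs lower for 12 of 12 (70%). The siRNAs were lower for 4 of 12 genes in del/del males (17.9%), for 8 of 12 in cat/cat males (17%) and for none of 12 in del/del females (0%). In del/+ females against del/+ males they were higher for 9 of 12 (44.2%), such as wars-1 at 2.08 and tgt-2 at 2.00. A fragment of an mRNA in these libraries is not a measure of the mRNA's level.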

How the data were processed

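Small RNA libraries of whole males, females and purified sperm were analysed from the raw counts per RNA that the authors deposited, 126388 RNAs per table. Per the study's methods and processing notes, reads were trimmed (Trimmomatic), aligned with Bowtie2 to rRNA, miRNA, tRNA and piRNA sequences in turn, and the rest with STAR to the genome (WS245) and counted with featureCounts, sense reads as mRNA fragments and antisense reads as endogenous siRNAs. The mRNA-seq tables, made with RSEM, were not used. Tool versions are not given in the sources used here. How reads of identical tRNA copies were divided is not stated, so genes were summed per anticodon, the other RNAs being kept as they are. PCR duplicates carry no molecular identifiers here.

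Counts were fitted with edgeR 4.0.16 (quasi-likelihood, R 4.3.3, limma 3.58.1) on the libraries of the groups compared. The library size was fixed at all counts, at counts without rRNA for cat/cat sperm, or at counts without rRNA and piRNA for females and for females against males. An RNA was tested where the number of libraries with 10 or more counts reached the size of the smaller group, p-values were adjusted by Benjamini-Hochberg over all of them, and an adjusted p under 0.05 was a call. The model was tested on simulated data. Alternatives were other library sizes, TMM, DESeq2 1.42.0 with its own size factors, no filter, genes kept apart, leaving out each library and a replicate block. Shares of single genes were compared by exact permutation tests, 2-sided (scipy 1.17.1, Python 3.11.15). The depth of each library was its total count, from 4976236 to 51191372.

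The 6 anticodons were named in every comparison. Single genes named were the 2 highest and the lowest of each anticodon by mean rpm and any gene called against its anticodon. This rule uses measured levels of the same 45 libraries, and chrV_trna154_TyrGTA was named by it as the lowest gene of Tyr-GTA. The members and lists were chosen with earlier results of these data known. The study calls its replicates biological, and the labels do not name the culture of each library. No 2 of the 83 replicate pairs compared were identical. The 4 WT sperm libraries stood in 2 tables with the same counts and were used once. In the table of females, piRNA entries were shifted against the others and were not used, and 1 column was not used since it names no sample. In the male deletion comparison all 5 pairs of same-numbered libraries deviated together (correlation 0.185 to 0.439), so the numbers were taken to pair them. Unlike numbers among libraries 1 to 3 also did (0.0633 to 0.288), as did 4 and 5 (0.241 and 0.269). Numbers across these sets did not (-0.359 to -0.134), so pairs and sets of libraries cannot be told apart. The miRNA mir-228 in del/+ males was at 15512 to 20669 rpm in libraries 1 to 3 against 2166 to 3113 rpm in 4 and 5. The main fit held neither pairs nor sets. In cat/cat sperm against males of the sperm experiment the same-numbered pairs also deviated together, at 0.133, 0.0683 and 0.225. Unlike numbers there lay at -0.190 to 0.0975. The numbers were not taken to pair these libraries, and with a replicate block the call for Trp-CCA was lost, as given below. In the remaining comparisons not all same-numbered pairs deviated together.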

Additional observations from a re-analysis of the deposited data

Results flagged for a closer look

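Single libraries stood apart from the rest of their group in 6 of the 54 groups of values examined for this. Chance would give about 1 in 20 for independent groups. The anticodons share their libraries and are not independent, so no excess over chance can be read from this. In del/del males, the 6th library had 2084 rpm of Cys-GCA, against 735 rpm in the next highest. In del/+ males, the 1st library had 3078 rpm of Trp-CCA, against 920 rpm in the next highest. In cat/cat sperm, the 3rd library had 678 rpm without rRNA of Trp-CCA, against 346 rpm in the next. The same library had 561 rpm of Phe-GAA, against 393 rpm in the next, and 38.9 rpm of Tyr-ATA, against 1.03 rpm in the next. Its mir-70 level was 118 rpm without rRNA and piRNA, against 19.5 to 27.7 rpm in the other cat/cat sperm libraries. Its mir-81 level, 3508 rpm, lay within the 2251 to 4705 rpm of those libraries. In del/del females, the 4th library had 70.3 rpm of Trp-CCA, against 23.3 rpm in the next. Not among these 6 was Trp-CCA in cat/cat males of the sperm experiment. There the 1st library had 253 rpm without rRNA, against 1347 and 1344 rpm in the other libraries of that group. No cause was tested for any of these.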

How the results depend on the processing

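With tRNA counts as library size, the direction turned in WT sperm for Cys-GCA (-0.28) and Tyr-GTA (-0.35), in del/del males for Tyr-GTA (-1.16) and Asn-GTT (-1.34), and in cat/cat males for Trp-CCA (-1.17), Phe-GAA (-1.15) and Asn-GTT (-1.06). The number of the 6 anticodons called became 3 in WT sperm (5 in the report), 6 in del/del males (1) and 4 in cat/cat males (1). In this section the share of all RNAs called is not given beside such numbers. They cannot be read as particular to the 6 anticodons. With all counts, cat/cat sperm against WT sperm turned for Cys-GCA (-0.61), Trp-CCA (-0.13) and Tyr-GTA (-0.15). DESeq2 called 3 anticodons in del/del and 3 in cat/cat males (1 each), adding Tyr-GTA and Asn-GTT, and 3 in cat/cat sperm against males (5), as did TMM. With no filter the count was 2 in del/del males (1), 5 in cat/cat sperm against WT sperm (2), 1 in females (0), 2 for the difference between sexes (0) and 1 for that between alleles (0). Leaving out each library gave 1 to 2 calls in cat/cat males and 3 to 6 in cat/cat sperm against males, where Tyr-ATA ranged between -2.41, without the 3rd sperm library, and 2.24. In all, 48 of 52 values kept direction and call under TMM, and 552 of 602 when a library was left out. No cause was tested.

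With the replicate block, Cys-GCA was at 2.03 ± 0.14 in del/del males (adjusted p = 0.000119) and no call changed there. Where the numbers were not taken to pair the libraries, the block gave 1.68 ± 0.24 (0.0345) for Cys-GCA in cat/cat males, -0.88 (0.0816) for Trp-CCA in cat/cat sperm against males, and 1 anticodon called in females, Cys-GCA at 1.44 (0.035).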

Other observations

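Within replicate numbers, the ratio of Cys-GCA in homozygous over heterozygous males was 3.17, 3.97, 3.29, 5.38 and 5.07 for the deletion and 3.06, 4.30, 3.54, 1.65 and 4.34 for the catalytic allele.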
